A study of Mus musculus with 13 samples.

Results

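The nuclear-encoded oxidative phosphorylation (OXPHOS) genes make the subunits of the 5 mitochondrial complexes that turn the oxidation of food molecules into ATP. They were taken as every protein-coding gene whose symbol starts with Nduf, Uqcr or Atp5, is one of Sdha, Sdhb, Sdhc and Sdhd, or starts with Cox followed by a digit from 4 to 8. This gave 94 gene identifiers with 93 symbols among the 22442 genes listed for Ribo-seq, since Atp5o carries 2 overlapping identifiers. By complex these were 36 genes of complex I with 8 of its assembly factors (Ndufaf), 4 of complex II, 8 of complex III, 20 of complex IV and 18 of complex V. Ndufa4 and Ndufa4l2 were placed in complex IV, where their products are now known to belong, in spite of their names.

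Complexes I, III and IV pump protons across the inner mitochondrial membrane while they pass electrons on to oxygen, complex II feeds electrons from the citric acid cycle into the same chain, and complex V, the ATP synthase, lets the protons flow back to make ATP. Apart from complex II, each complex has core subunits, among them those that bind the cofactors or the substrate, and small accessory subunits around them. An oocyte holds a very large number of mitochondria, relies mainly on OXPHOS for its ATP, and stores most of its mRNA during growth, so that after transcription stops the use of these messages is set by translation and decay.

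The data were Ribo-seq counts from mouse oocytes at the germinal vesicle (GV) stage, before meiosis resumes, and at metaphase II (MII), the ovulated egg. RNase I digests the mRNA that ribosomes do not cover, and the piece left is called a footprint. The methods describe no isolation of ribosomes, so that pieces protected in other ways cannot be told apart from footprints. WT oocytes were compared with Nat10-ZcKO oocytes. In the latter, floxed Nat10, the RNA N4-acetylcytidine (ac4C) acetyltransferase gene, is deleted by Cre from the Zp3 promoter, which is active in growing oocytes and not in the somatic cells of the follicle. There were 3 WT GV, 3 Nat10-ZcKO GV, 2 WT MII and 3 Nat10-ZcKO MII libraries, each made from about 100 oocytes. All mice were of the C57BL/6J background, and the oocytes came from 21-day-old females given 5 IU PMSG, and GV oocytes were collected 48 h later. In superovulation, hCG followed PMSG by 46 h, and eggs were freed of cumulus cells with hyaluronidase 16 h after that. The submitters' text also names tamoxifen injection for 3 days, which the deletion by Zp3-Cre does not need and which could not be tied to single groups. In addition, 1 anti-ac4C and 1 anti-IgG RNA immunoprecipitation (acRIP-seq) library were made from about 2000 WT GV oocytes, with RNA broken to about 200 nt. The methods state biological replication in general, but whether these libraries came from separate animals was not given in the sources used here, so that a p-value measures only the spread between these libraries.

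Ribo-seq depth was low, at 42360 to 279464 counts per library, with 4815 in WT MII replicate 2. A gene at 0 could therefore be present at up to 10.7 to 70.8 CPM (counts scaled to the library's coding total), or 623 CPM in that library, the level of 3 counts, for counting error only. In 3 libraries the oocyte markers were low or at 0. WT MII replicate 2 had all 12 oocyte markers at 0. Nat10-ZcKO GV replicate 1 had 10 of 12 oocyte markers at 0, 0.00944% of its counts on them, and 1.56% on 16 adipocyte markers. Nat10-ZcKO GV replicate 2 had 1.05% of its counts on oocyte markers and 0.323% on adipocyte markers. The other GV libraries had 3.68% to 6.63% on oocyte markers and at most 0.0340% on adipocyte markers. Results are therefore given with all 11 libraries and with the 8 others, in which each stage has 4 libraries. These are 3 WT and 1 Nat10-ZcKO library at GV, and 1 WT and 3 Nat10-ZcKO libraries at MII. Shares, means and overlaps pooled over the 8 libraries therefore mix stage with genotype, while the fits of stage have a term for genotype. The targeted gene could not check the labels, since Nat10 had 1 to 11 counts in every library. It had 31.2 to 55.0 CPM in the WT GV libraries and 18.04 to 94.4 CPM in Nat10-ZcKO GV.

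The OXPHOS genes together took about 3 times as large a share of the footprints at GV as at MII. For WT GV the summed share was 0.790%, 0.858% and 0.948%, and for Nat10-ZcKO GV replicates 1, 2 and 3 it was 1.08%, 0.474% and 1.08%. Among the MII libraries, WT had 0.300% and 0.145%, while Nat10-ZcKO had 0.340%, 0.352% and 0.233%. The 2 stages did not overlap, with or without the 3 libraries that stood apart.

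By group, the mean share was 0.865% ± 0.0791 (SD, n = 3) in WT GV, 0.877% ± 0.349 (n = 3) in Nat10-ZcKO GV, 0.223% ± 0.109 (n = 2) in WT MII and 0.308% ± 0.0654 (n = 3) in Nat10-ZcKO MII. At GV the genotypes differed by less than the spread of their libraries. At MII they differed by more than the SD of Nat10-ZcKO and by less than that of WT, and their libraries overlapped. Over the 8 libraries the mean share was 0.919% at GV and 0.306% at MII, a ratio of 3.00. Taken within a genotype, the ratio was 2.89 in WT, with 1 MII library, and 3.50 in Nat10-ZcKO, with 1 GV library.

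**Figure D1:**
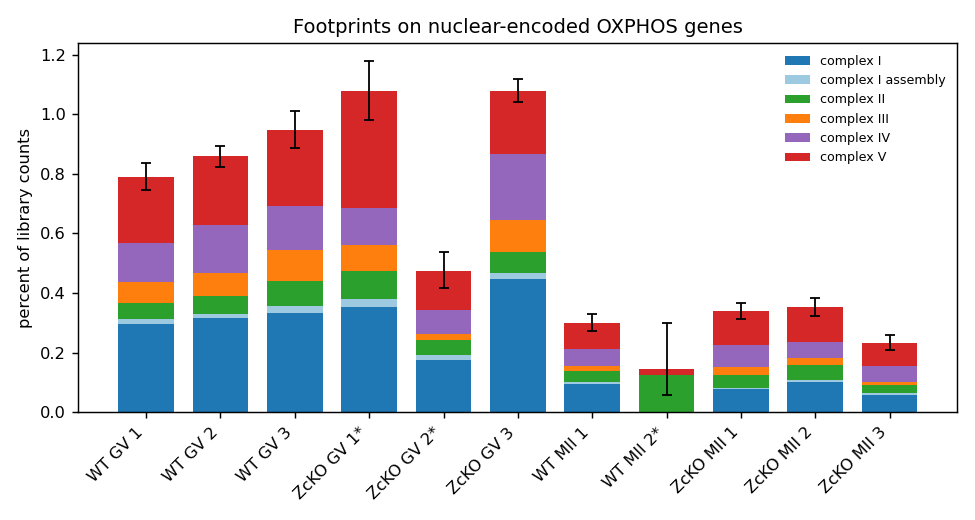
Percent of each library's coding counts that fell on OXPHOS genes, stacked by complex; whiskers are exact 95% binomial intervals of the sum (counting error only), and asterisks mark the 3 libraries whose oocyte markers were low or at 0. The GV bars stand between 0.474% and 1.08% and the MII bars between 0.145% and 0.352%.

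The ratio was not the same in each complex, and these ratios were not tested against each other. In the 8 libraries complex III had 0.0915% of the counts at GV and 0.0186% at MII, a ratio of 4.93, and complex I 0.348% and 0.0820%, a ratio of 4.24. Complex IV had a ratio of 2.81, complex V of 2.30 and complex II of 1.60. Within WT the ratios were 5.47 for complex III, 3.34 for I, 2.545 for IV, 2.67 for V and 1.76 for II. Within Nat10-ZcKO they were 5.65, 5.72, 3.71, 2.05 and 1.615 in the same order, so that the order of the complexes differed between genotypes. Complex II was the one complex whose libraries overlapped between stages, at 0.0509% to 0.0811% at GV and 0.0282% to 0.0532% at MII. The overlap was only across genotypes, between WT GV replicate 1 (0.0509%) and Nat10-ZcKO MII replicate 2 (0.0532%). Within each genotype the GV libraries among the 8 lay above those at MII. The complex I assembly factors were lower than any complex, at 0.0197% and 0.00601%.

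Other gene groups gave ratios on both sides of that of the OXPHOS genes. The 97 cytosolic ribosomal protein genes had a GV to MII ratio of 4.36, the 14 citric acid cycle genes of 2.39, the 78 mitochondrial ribosomal protein genes of 1.98 and 46 genes for electron carriers and assembly factors of 1.67. The 13 genes of the mitochondrial DNA, which code for the remaining subunits, had a mean of 0.0563% at GV and 0.0332% at MII. For these 13 genes the stages overlapped only across genotypes, as in WT GV replicate 3 (0.0447%) and Nat10-ZcKO MII replicate 2 (0.0511%). Within each genotype their GV libraries among the 8 lay above those at MII. Their ratio was 3.64 within WT, with 1 MII library, and 1.997 within Nat10-ZcKO, with 1 GV library. Oocyte markers had 5.01% at GV and 0.778% at MII, and the 10 muscle markers, among which 4 to 8 were at 0 in these libraries, 0.0817% and 0.0117%. The 15 granulosa and cumulus markers had 0.410% and 0.431%. Their part in the OXPHOS result was not tested, and in bulk libraries fewer cells and less RNA per cell cannot be told apart.

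Not every member left a footprint. Of the 94, 85 had at least 1 count in the 11 libraries, and 9 had none. Of these 9, the second Atp5o identifier overlaps the first, and Cox7a1, Cox7b2 and Cox8b, muscle or testis forms of complex IV subunits, had no fragment in either acRIP-seq library. Ndufb4, Atp5g1, Atp5g2 and Atp5l did have acRIP-seq fragments, with 53 anti-IgG and 40 anti-ac4C fragments for Ndufb4. For these 4 genes, 100% of the 28-base windows in the coding exons also occur elsewhere in GRCm38, so that a footprint from them has more than 1 place to align. Among all members, 36 had no repeated window and 16 had over 50% repeated. The latter include Ndufab1, Cox5b, Cox7c, Cox6c and Atp5f1, whose counts are uncertain for that reason. Atp5s, which had no footprint either, had 3 acRIP-seq fragments.

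Levels between genes were compared per length of coding sequence, as TPM (counts divided by length and scaled to a fixed total). In WT GV oocytes the highest member was Atp5e, the epsilon subunit of the ATP synthase, at 3239 ± 590 TPM (SD, n = 3). Uqcrh, the hinge protein of complex III, followed at 1271 ± 281 TPM and Ndufa4 at 1131 ± 215 TPM, which did not differ beyond their spread. Cox4i1, the regulatory subunit of complex IV, had 951 ± 147 TPM. Among the catalytic subunits Atp5b, the beta subunit of the ATP synthase, had 682 ± 47.2 TPM and Atp5a1, the alpha subunit that alternates with it in the same ring, 93.4 ± 11.4 TPM. Ndufs1, the large iron-sulphur subunit of complex I, had 21.8 ± 8.13 TPM.

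Gene by gene, the change from GV to MII was then tested. With all 11 libraries and a term for genotype, 50 of the 94 members had enough counts to be tested, and 24 fell from GV to MII and 0 rose (edgeR quasi-likelihood test, Benjamini-Hochberg adjusted over 3863 genes). Of all genes tested, 13.7% fell and 7.53% rose. With the 8 libraries, 54 members were tested, 42 fell and 0 rose, against 29.5% of 4029 genes that fell and 25.5% that rose. The median log2 change of the members tested was -2.17 with 11 libraries and -2.36 with 8, and that of all genes -0.59 and -0.10. A gene could pass the filter through its GV counts alone, so these counts describe the members tested and not the others.

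The number of calls depended strongly on single libraries. Among the 11 it was 2 without WT MII replicate 1, which leaves the library of 4815 counts as the only WT MII library, 6 without Nat10-ZcKO GV replicate 3, and 13 without Nat10-ZcKO MII replicate 1 or without replicate 3. DESeq2 called 43 on the same 11 libraries. A count that needs no model gave the same direction. Of the 74 members with at least 10 counts over the 8 libraries, 40 had every GV library above every MII library and 0 the reverse, against 17.5% of 8094 genes with the former order and 14.8% with the latter.

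The 24 genes called with 11 libraries were all among the 42 called with 8. Those of complex I were Ndufb5, Ndufa5, Ndufa13, Ndufs6, Ndufb6, Ndufs7, Ndufb11, Ndufa11, Ndufb7, Ndufv3, Ndufa2 and Ndufb9, with the assembly factor Ndufaf7. The others were Sdhb of complex II, Uqcrc2, Uqcrh, Uqcr10 and Uqcrq of complex III, Cox4i1 and Cox7b of complex IV, and Atp5o, Atp5k, Atp5mpl and Atp5f1 of complex V. The genes called with 8 libraries alone included 17, which were Ndufa1, Ndufa3, Ndufa6, Ndufa7, Ndufa9, Ndufa10, Ndufb8, Ndufs4, Ndufv1, Uqcr11, Cox6a1, Cox6b1, Cox6c, Cox7a2, Ndufa4, Atp5e and Atp5j2. Their log2 changes in that fit ran from -3.89 (Ndufa7) to -1.05 (Ndufv1).

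**Figure D2:**
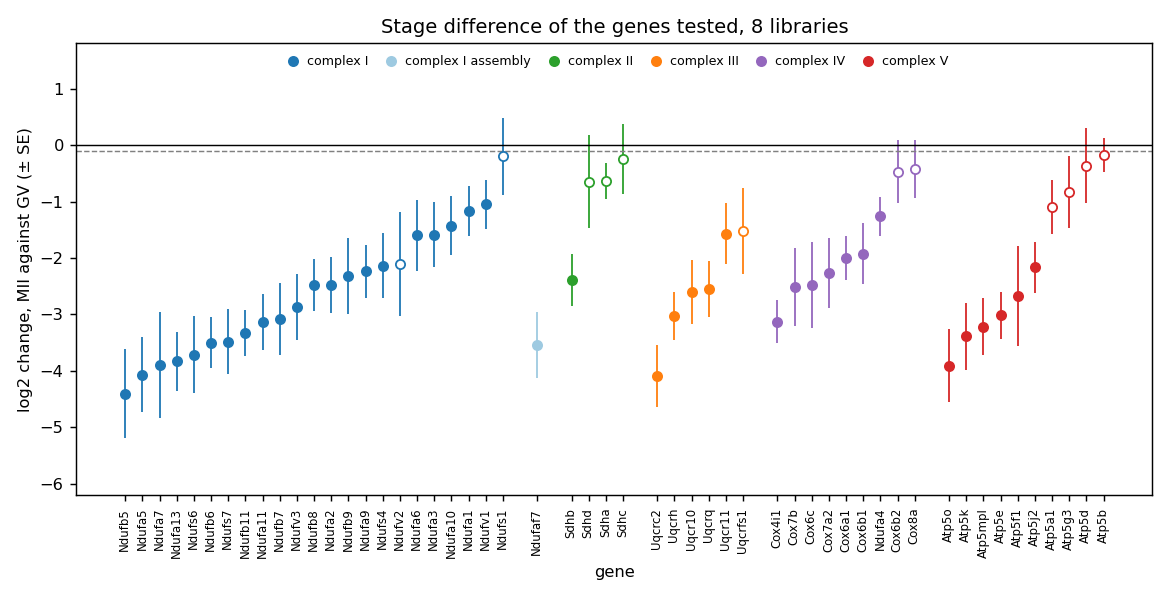
Log2 change from GV to MII with its standard error (y axis) for 53 OXPHOS genes tested in the 8 libraries, grouped by complex; filled points have an adjusted p under 0.05, and the dashed line is the median of all genes. Changes run from -4.40 for Ndufb5 to -0.18 for Atp5b, and complexes II and V hold most of the open points.

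In complex I, 22 of 24 genes tested fell, 19 accessory and 3 core subunits. Ndufb11, an accessory subunit of the membrane arm (chromosome X, 20615326 to 20617619 in mm10), had 254, 261 and 333 CPM in the WT GV libraries and 408 in Nat10-ZcKO GV replicate 3. The MII values were 59.3 CPM for WT replicate 1 and 31.9, 34.1 and 18.8 CPM for Nat10-ZcKO, so that these MII libraries lay below these GV libraries. Nat10-ZcKO GV replicates 1 and 2 had 94.4 and 232 CPM, and WT MII replicate 2 had 0. The log2 change was -3.33 ± 0.405 (SE, edgeR adjusted p = 6.48e-08) in the 8 libraries and -3.02 ± 0.897 (adjusted p = 0.0115) in the 11. Of its coding windows, 49.2% have a copy elsewhere in the genome.

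Ndufs7, the core subunit with the last iron-sulphur cluster before ubiquinone, had 158, 200 and 281 CPM in WT GV and 188 in Nat10-ZcKO GV replicate 3. At MII it had 22.2 CPM in WT replicate 1, 47.9 in Nat10-ZcKO replicate 1 and 0 in Nat10-ZcKO replicates 2 and 3. It fell by 3.48 ± 0.578 on the log2 scale (edgeR adjusted p = 9.65e-06). The largest fitted fall was that of Ndufb5, a membrane-arm accessory subunit, with a log2 change of -4.40 ± 0.788, from a mean of 91.9 CPM at GV to 4.74 CPM, or 3 counts over 4 libraries, at MII.

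Core subunits at the entry of the electron path had smaller changes or none that passed. Ndufv1, which binds NADH and the flavin, changed by -1.05 ± 0.433 (edgeR adjusted p = 0.0403), and did not pass with all 11 libraries. Ndufs1 had means of 40.4 and 35.5 CPM with overlapping libraries (log2 change -0.20 ± 0.685, edgeR adjusted p = 0.824), and Ndufv2, a core subunit beside Ndufv1, missed the threshold at -2.11 ± 0.916 (adjusted p = 0.0512). Of the assembly factors only Ndufaf7, a methyltransferase of the mitochondrial matrix, was tested, and it fell by 3.54 ± 0.590 on the log2 scale.

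Complex II behaved differently from one subunit to the next. Sdha, the flavoprotein that oxidizes succinate (chromosome 13, 74322254 to 74350280), had 241, 412 and 437 CPM in WT GV and 390 in Nat10-ZcKO GV replicate 3. At MII it had 230, 314, 389 and 207 CPM in WT replicate 1 and Nat10-ZcKO replicates 1 to 3, which overlapped the GV values across genotypes. Within each genotype these MII values lay below those at GV, though in Nat10-ZcKO the closest were 389 and 390 CPM. Its log2 change was -0.64 ± 0.323 (edgeR adjusted p = 0.0928) in the 8 libraries, and with scaling by library size alone over 11 libraries it was 0.03. Sdha was also 6 of the 7 OXPHOS counts in WT MII replicate 2. Sdhb, the iron-sulphur subunit that takes the electrons from Sdha, fell instead, from a mean of 175 ± 35.8 CPM (SD, n = 4) to 34.5 ± 21.1 CPM (log2 change -2.40 ± 0.461, edgeR adjusted p = 7.65e-05). The membrane anchors Sdhc and Sdhd had log2 changes of -0.24 ± 0.619 and -0.65 ± 0.825, and neither passed.

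In complex III, 5 of 6 genes tested fell. Uqcrc2, a core protein of its matrix side (chromosome 7, 120635176 to 120659524), had 117, 190 and 302 CPM in WT GV and 256.2 in Nat10-ZcKO GV replicate 3, while WT MII replicate 1 had 22.2 CPM and the Nat10-ZcKO MII libraries 26.6, 6.82 and 0 CPM. These MII libraries held 9 counts of it together, and the log2 change was -4.10 ± 0.547 (edgeR adjusted p = 3.23e-07). Uqcrh fell by 3.03 ± 0.420 on the log2 scale. The Rieske protein gene Uqcrfs1 did not pass (-1.52 ± 0.768, edgeR adjusted p = 0.0910). Uqcrc1, the other core protein, had 16 counts in the 11 libraries and was not tested.

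In complex IV, 7 of 9 genes tested fell. Cox4i1 (chromosome 8, 120668222 to 120674207) stayed between 385 and 510 CPM in all 6 GV libraries, with 385, 494 and 510 CPM for WT and 401, 387 and 494 CPM for Nat10-ZcKO. Its MII values were 59.3 and 0 CPM for WT and 74.5, 95.4 and 18.8 CPM for Nat10-ZcKO. The log2 change was -3.13 ± 0.376 (edgeR adjusted p = 5.45e-08) in the 8 libraries and -3.04 ± 0.995 (adjusted p = 0.0203) in the 11. Cox8a, a small membrane subunit, did not pass (-0.43 ± 0.517), and Ndufa4 fell by 1.26 ± 0.345 on the log2 scale. The stages overlapped for Ndufa4 across genotypes, since Nat10-ZcKO MII replicate 1, at 287 CPM, lay above the WT GV libraries. Within each genotype its GV values among the 8 libraries lay above those at MII.

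Several complex IV subunits have a second, related gene, which for some of them is best known from muscle, lung or testis. These genes were set side by side as pairs. Cox6b1, the common form of a subunit that faces the intermembrane space, had 542 ± 285 TPM (SD, n = 4) at GV and 181 ± 154 TPM at MII and fell (log2 change -1.92 ± 0.544, edgeR adjusted p = 0.00395). Its testis form Cox6b2 had 201 ± 57.3 TPM at GV and 199 ± 95.02 TPM at MII (log2 change -0.47 ± 0.556, edgeR adjusted p = 0.479). With all 11 libraries neither was called, at -1.59 ± 0.748 for Cox6b1 and 0.09 ± 0.792 for Cox6b2. Cox6b1 was the higher of the pair in 3 of 4 GV libraries and in 2 of 4 MII libraries. The difference between the 2 changes was not tested.

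The remaining second genes had few footprints. Cox4i2, the form known from lung, had 69.6 TPM at GV against 957 TPM for Cox4i1, and 15.6 against 129 TPM at MII. Cox6a2, Cox7a2l, Cox8c and Ndufa4l2 had 2 to 5 counts each over the 11 libraries. For Cox7a2l, which had 47 anti-IgG and 87 anti-ac4C fragments in acRIP-seq, 71.8% of the coding windows are repeated elsewhere in the genome, so that its few footprints cannot be read as a low level.

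**Figure D3:**
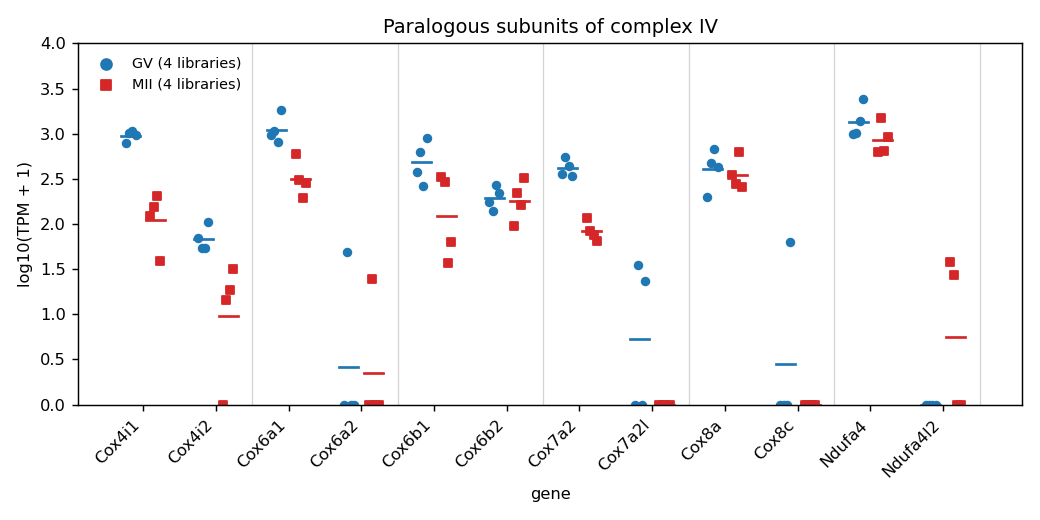
Footprint level, as log10(TPM + 1), of 6 pairs of related complex IV genes in the 4 GV (circles) and 4 MII (squares) libraries; short lines are means of the plotted values. Cox6b2 lies at a like height at both stages (201 and 199 TPM), Cox4i1 and Cox7a2 lie lower at MII, and the second members of the other pairs lie low or at 0.

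In complex V, 6 of 10 genes tested fell. Atp5b (chromosome 10, 128083273 to 128090391) had the most counts of any member. Its GV values were 825, 794 and 895 CPM for WT and 2007, 890 and 498 CPM for Nat10-ZcKO. Its MII values were 623 and 0 CPM for WT and 628, 634 and 589 CPM for Nat10-ZcKO. The 4 MII libraries with depth thus differed by little (618 ± 20.3 CPM). They lay inside the range of the GV libraries among the 8 (753 ± 175 CPM) only through Nat10-ZcKO GV replicate 3, at 498 CPM. All other GV libraries, those of WT included, lay above them. Its log2 change was -0.18 ± 0.298 (edgeR adjusted p = 0.622) in the 8 libraries and -0.83 ± 1.06 (adjusted p = 0.568) in the 11.

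Its partner subunits differed. Atp5e fell, with GV values of 344, 361 and 468 CPM for WT and 465.5 CPM for Nat10-ZcKO replicate 3, and MII values of 29.7 CPM for WT replicate 1 and 138, 95.4 and 18.8 CPM for Nat10-ZcKO (log2 change -3.02 ± 0.417, edgeR adjusted p = 5.47e-07). Nat10-ZcKO GV replicates 1 and 2 had 94.4 and 0 CPM. With all 11 libraries it missed the threshold (adjusted p = 0.0557). Atp5o, the stalk subunit that confers oligomycin sensitivity, fell by 3.91 ± 0.645 on the log2 scale. Atp5a1 missed the threshold at -1.10 ± 0.478 (edgeR adjusted p = 0.0515), and Atp5d, the delta subunit of the rotor, had means of 38.9 and 48.8 CPM. The fit, with TMM scaling and a term for genotype, gave Atp5d a log2 change of -0.37 ± 0.664. That is opposite to the direction of its means, and Atp5d did not pass. Atp5c1, the gamma subunit, had 45 counts in all and was not tested.

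**Figure D4:**
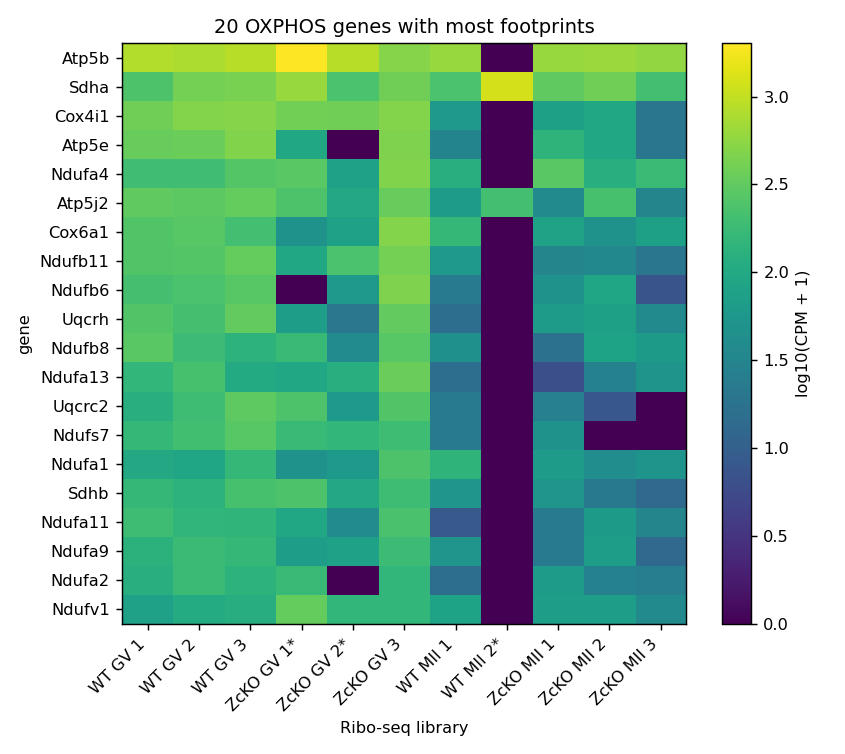
Footprints of the 20 OXPHOS genes with the highest mean over the 8 libraries (y axis) in each of the 11 libraries (x axis), as log10(CPM + 1); asterisks mark the 3 libraries that stood apart. In the 8 libraries without an asterisk Atp5b, Sdha and Ndufa4 are among the genes that overlap between the stages, Sdha and Ndufa4 only across genotypes. WT MII 2 shows 0 for Atp5b and 1246 CPM for Sdha, and most of the other genes are darker in the MII columns.

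Core and accessory subunits were then set side by side. The core was listed as 19 genes, among them Ndufs1, Ndufs3, Ndufs7, Ndufs8, Ndufv1, Ndufv2, the 4 Sdh genes, Uqcrc1, Uqcrc2, Uqcrfs1 and the alpha to epsilon subunits of the ATP synthase. In the 8 libraries 6 of the 15 core genes tested fell, with a median log2 change of -1.10, and 36 of the 39 other genes tested, with a median of -2.51. In the 11 libraries it was 3 of 14 and 21 of 36. The core took 32.1%, 31.9% and 36.4% of all OXPHOS footprints in WT GV and 24.7% in Nat10-ZcKO GV replicate 3, while WT MII replicate 1 had 47.8% and the Nat10-ZcKO MII libraries 48.04%, 44.96% and 47.0%. This share does not depend on how libraries are scaled, and the stages did not overlap in it. Nat10-ZcKO GV replicates 1 and 2 had 47.4% and 43.3%, inside or near the MII range. Atp5b alone was 7.60% of the OXPHOS counts of the 4 GV libraries and 20.2% of those at MII, and Sdha 4.03% and 9.32%. Both belong to the core, and over these 8 libraries they account for its larger share at MII. The core list holds all 4 genes of complex II and none of complex IV, so that core and complex cannot be told apart.

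The OXPHOS genes have short coding sequences, with a median of 438.5 bases against 1215 for all protein-coding genes, and the stage difference was therefore also taken within bins of length. Of the 15 members tested with a coding sequence of up to 300 bases, 14 fell, as did 46.2% of the 39 other genes of that length. From 300 to 600 bases 13 of 18 members fell, as did 44.3% of 323 other genes. Of the 9 members over 1200 bases 5 fell, as did 26.4% of 2639 other genes. In the bin from 600 to 1200 bases 10 of 12 members fell, with a median log2 change of -2.44, against 29.4% of 972 other genes with a median of -0.10. Across the 54 members the log2 change and the log2 length had a Pearson correlation of 0.179 and a Spearman correlation of 0.153, and across the 3973 other genes 0.0447 and 0.0553, as a description, since the genes share their libraries. The part of length in the result was not tested.

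Between genotypes at GV, none of the 37 members tested differed with all 6 libraries (edgeR adjusted p at least 0.908 for each). Of 1765 genes tested, 0.0% did, although 93 had an unadjusted p under 0.05, of which 0 were members. Nat10-ZcKO GV replicate 3 against the 3 WT libraries, the alternative without the libraries that stood apart, gave 5 members that were higher and 0 lower, against 0.98% of 3879 genes that were higher. In the same fit 3 of 12 oocyte markers were higher, with a median log2 difference of 0.50, and the 10 granulosa and cumulus markers tested had a median of -0.44 with 0 called. Their part in the result was not tested. A single library stands for its genotype in that fit, and its spread was assumed to be that of the WT libraries. DESeq2 called no member with all 6 libraries.

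The 5 were Ndufa4 and Cox6a1 of complex IV and Ndufa1, Ndufa5 and Ndufa13 of complex I. Ndufa4 had 192, 193 and 260 CPM in WT and 480 in replicate 3 (log2 change 1.38 ± 0.326, edgeR adjusted p = 0.0116), and 283 and 77.4 CPM in replicates 1 and 2. Cox6a1 had 254, 279 and 208 CPM in WT and 491 in replicate 3 (1.16 ± 0.325, adjusted p = 0.0448), but 47.2 and 77.4 CPM in replicates 1 and 2. For Ndufa13, which had 151, 218 and 104 CPM in WT, replicate 3 had 368 CPM and the others 94.4 and 116 CPM. Replicate 3 was thus the one high library for Cox6a1 and Ndufa13, with replicates 1 and 2 below most or all WT libraries. Without replicate 3 the direction turned for some genes, and Atp5e, Uqcrh and Ndufb6 were called lower in the 2 libraries that stood apart, 3 of 34 members tested, against 8.99% of 1858 genes, which is no more than the share over all genes. Atp5b, with the most counts, had a log2 difference of 0.53 ± 0.730 with 6 libraries and -0.55 ± 0.303 with 4, and Sdha 0.31 ± 0.597 and 0.31 ± 0.333.

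The other members with the most counts had small and uncertain differences in the 6 libraries, at -0.76 ± 0.943 for Atp5e, 0.06 ± 0.570 for Cox4i1 and 0.03 ± 0.776 for Cox6a1. For Atp5e the WT and Nat10-ZcKO replicate 3 values overlapped, and replicates 1 and 2 lay below them.

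At MII none of the 11 members tested differed between genotypes, against 0.191% of 2097 genes, and 0 members had an unadjusted p under 0.05. DESeq2 called none either. Given the Atp5b values above, with 0 CPM in WT replicate 2, its log2 difference of 0.58 ± 1.48 (edgeR adjusted p = 0.997) rested on the WT library with 4815 counts. Without WT MII replicate 1, which leaves that library alone, Atp5b and Ndufa4 were called higher, 2 of 17 members tested, against 47.3% of 2809 genes. With WT MII replicate 1 alone the difference for Atp5b was -0.09, with no call for any member. Sdha had a log2 difference of -0.26 ± 1.14, Ndufa4 of 0.80 ± 0.987 and Cox6a1 of -1.05 ± 0.848. Neither direction could be tested with more than 1 WT library of depth.

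The interaction of stage and genotype was called for none of the 50 members tested in 11 libraries, against 0.802% of 3863 genes, and 2 members had an unadjusted p under 0.05. In the 8 libraries it was called for 0 of 54 members, with 6 at an unadjusted p under 0.05, and DESeq2 called none in the 11. Without WT MII replicate 1 it was called for 1 of 64 members, Atp5b, against 21.9% of 5532 genes. In the 8 libraries Ndufa1 (-2.78 ± 0.772) and Cox6a1 (-2.35 ± 0.678) came nearest, both with an edgeR adjusted p of 0.378. The standard errors were 0.545 or more on the log2 scale in the 8 libraries, so that a small difference was not detectable at this depth.

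In acRIP-seq the OXPHOS messages made up a smaller share of the anti-ac4C library than of the anti-IgG control. With 116232 gene counts in the anti-IgG and 970997 in the anti-ac4C library, they had 1494 fragments or 1.29% (exact 95% interval 1.22 to 1.35) and 5446 fragments or 0.561% (0.546 to 0.576). The ratio of the 2 shares was 0.436 (0.412 to 0.462). There was 1 library of each kind, so that the intervals cover counting error only and the comparison is between these 2 libraries.

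Gene by gene, 48 members had at least 50 fragments over both libraries, and 4 of these had an anti-ac4C/IgG ratio above 2, against 32.8% of 4680 genes. The interval lay wholly below 1 for 27 of the 48, against 19.2% of all genes. The median ratio was 0.470 for the members and 1.27 for all genes. Complex II again stood at the other end, with a summed ratio of 1.30 (0.936 to 1.86), while complexes I, III, IV and V had 0.399, 0.440, 0.386 and 0.394.

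The 4 members above 2 were Sdhc, Ndufa10, Ndufa8 and Sdha. Sdhc had 77 anti-ac4C fragments and 0 anti-IgG fragments, which puts its ratio at 2.44 or more by the lower 95% bound. Ndufa10, an accessory subunit of the matrix arm, had 96 and 1 fragments, a ratio of 11.5 (2.01 to 459), and no other member had a lower bound above 2. Ndufa8 had a ratio of 2.48 (0.935 to 9.33) and Sdha of 2.19 (1.20 to 4.45). The next in order were Ndufaf2, a complex I assembly factor, at 1.44 (0.629 to 4.04), and Ndufs7 at 1.23.

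The lowest were Ndufb4 at 0.0903 (0.0584 to 0.139), Ndufa7 at 0.101, Cox7c at 0.106, Ndufv3 at 0.158 and Atp5h at 0.176, which are subunits of complexes I, IV and V. Ndufb4, Atp5h and Cox7c have 100%, 83.6% and 81.5% of their coding windows repeated elsewhere in the genome. Atp5b had 307 anti-ac4C and 36 anti-IgG fragments, a ratio of 1.02 (0.721 to 1.49), and Atp5e 95 and 50, a ratio of 0.227 (0.160 to 0.327). The other members with an interval below 1 had ratios from 0.211 (Cox6c) to 0.611 (Cox4i1). They were Ndufa2, Ndufa5, Ndufb5, Ndufb7, Ndufb11, Ndufc2, Ndufv2, Uqcrh, Uqcrq, Uqcr11, Cox5a, Cox6c, Cox7a2, Cox7a2l, Ndufa4, Cox4i1, Atp5d, Atp5j2, Atp5k, Atp5mpl and Atp5o. Among core subunits the median ratio was 0.824 over 14 genes, and among the others 0.391 over 34.

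**Figure D5:**
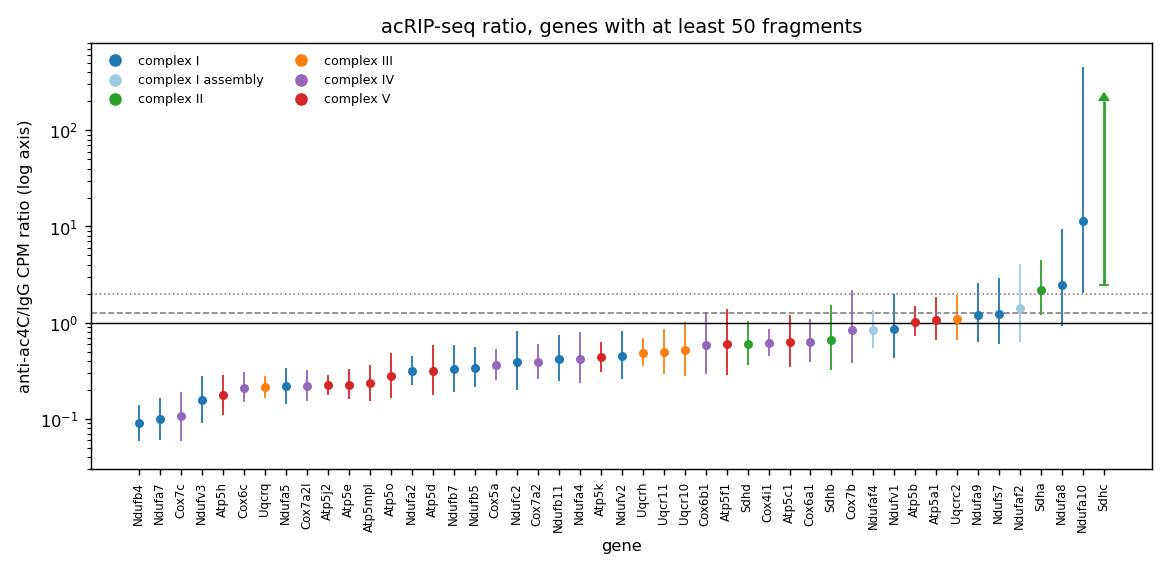
Ratio of anti-ac4C to anti-IgG CPM (log axis) with exact 95% intervals for 47 OXPHOS genes with at least 50 fragments, in ascending order and coloured by complex; lines mark 1 (solid), the median of all genes at 1.27 (dashed) and 2 (dotted). Sdhc has no anti-IgG fragment and is drawn as an arrow up from its lower bound, and 37 of the genes drawn lie below 1.

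The ratio moved with transcript length over all genes as well. Among genes that are not OXPHOS members the median ratio was 0.539 for transcripts of up to 600 bases, 0.789 from there to 1000, 1.03 to 2000, 1.29 to 4000 and 1.48 above. The members had medians of 0.439, 0.377 and 0.615 in the first 3 of these bins, with 9, 18 and 16 genes, and 2.19 for the 5 genes from 2000 to 4000 bases. The median transcript was 838 bases for the members and 2679 for all genes. The part of length in the low ratios was not tested.

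Sequence in the promoters and at the 3′ ends was read from the references for what members share. A promoter was found in RefSeq (GRCm38.p6) for 74 symbols. The motif of nuclear respiratory factor 1 (NRF1), a regulator known for OXPHOS genes, was searched as GCGCA directly followed by TGCGC, which reads the same on both strands. It was in the 250 bases before the start in 5 of these, or 6.76%, against 0.877% of 27025 genes. All 5 are shown, since the motif was in a larger share of the members than of all genes, with 25 bases on each side and the motif in capitals.
Ndufaf4, chr4:24897945-24898004, plus strand: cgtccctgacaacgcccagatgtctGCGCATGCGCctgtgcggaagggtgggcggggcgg
Atp5k, chr5:108434415-108434474, minus strand: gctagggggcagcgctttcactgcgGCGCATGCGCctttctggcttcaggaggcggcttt
Cox6a1, chr5:115349086-115349145, minus strand: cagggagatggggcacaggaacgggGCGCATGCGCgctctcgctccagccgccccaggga
Atp5g2, chr15:102671055-102671114, minus strand: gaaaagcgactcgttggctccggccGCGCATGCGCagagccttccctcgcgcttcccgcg
Ndufa11, chr17:56717677-56717736, plus strand: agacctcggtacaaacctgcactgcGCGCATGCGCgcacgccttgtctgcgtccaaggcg
The starts are those of RefSeq, and for Atp5k and Atp5g2 the motif overlaps the gene as GENCODE M21, the annotation matched to the counts, places it. Atp5k, Cox6a1 and Ndufa11 fell from GV to MII in the 8 libraries, Atp5g2 had no footprint, and Ndufaf4 was not tested. The ETS motif CCGGAAGT, on either strand, was in 4.05% of the members and 3.23% of all genes.

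At the 3′ ends the members had few cytoplasmic polyadenylation elements (CPE), the sites through which many stored oocyte messages gain poly(A) and be translated as meiosis resumes. The last 100 bases of the annotated transcript were searched on the sense strand, or the whole 3′ untranslated region where that is shorter. The median length of that region was 155 bases for the members and 823 for all genes, and its part in the counts was not tested. TTTTAT or TTTTAAT was found in 9 of 93 members, or 9.68%, against 17.1% of 20714 genes and 22.2% of the 4001 genes tested with an annotated end. It was in 2 of the 42 members that fell and 0 of the 12 tested members that were not called. Ndufs4, an accessory subunit of complex I, fell (log2 change -2.14 ± 0.576) and has one 58 bases before its end.
Ndufs4, chr13:114287839-114287860, minus strand: tggagatcTTTTATtcttagga
The capitals mark the element. The polyadenylation signal AATAAA was in the last 40 bases of 62.4% of the members and 58.8% of all genes. A match is a letter match in the annotation, not a site shown to be used.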

How the data were processed

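Per the labels, the deposited files hold raw counts per gene, of coding-sequence footprints in 11 Ribo-seq libraries and of fragments in 2 acRIP-seq libraries. The submitters' processing notes name cutadapt, STAR, HTSeq and mm10, and their versions and settings, the treatment of reads with several alignments included, were not given in the sources used here. Identifiers were matched to GENCODE M21 (22399 of 22442 genes). Lines that name no gene were left out (no feature: 46.7% of anti-IgG and 17.1% of anti-ac4C counts; ambiguous: 0.392% and 0.750%). CPM used each library's total, and TPM the union coding length. The quasi-likelihood test of edgeR 4.0.16 under R 4.3.3 was applied to the counts after filterByExpr and TMM scaling, with Benjamini-Hochberg adjustment over all genes tested and a threshold of 0.05. The standard errors of log2 changes are approximate, as the size of the change divided by the square root of the F statistic. DESeq2 1.42.0 was an alternative. The fits were also run on simulated counts with large changes set into genes with many counts. That run does not cover members with few counts or the 3 libraries that stood apart. Intervals are exact Clopper-Pearson intervals of 95% (scipy 1.17.1) and cover counting error only, since the libraries were amplified without molecular identifiers. The values of single genes were given by a rule that names the 20 members with the highest mean CPM over 8 libraries, the core subunits, members called in a fit or without the 3 libraries that stood apart, the 5 tested members with most counts, related complex IV genes, and the extremes of the ratio. Members and lists were chosen with earlier results of these data known. Motif searches, repeated windows and length bins were added after the values were seen. For 1 member no single value is reported here, although it is part of the counts, medians and sums.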

Additional observations from a re-analysis of the deposited data

How the results depend on the processing

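With all 11 libraries, 24 members fell from GV to MII. DESeq2 called 43, no filter on low counts 6, a filter of at least 10 counts 15, and the fit without the 3 libraries that stood apart 42. Leaving out 1 library gave 2 to 32. The all-gene median was -0.59 with TMM scaling, -0.56 with library size only and -1.01 with DESeq2, and no setting called a member higher. Replicate numbers did not pair the libraries (correlations of deviations from -0.096 to 0.151). The fit with the replicate number as a block called 9 for stage, and it turned the log2 difference to -0.69 for Cox6a1 at GV and -0.21 for Atp5j2 at MII. Between genotypes at GV, leaving out 1 library gave 0 to 3 calls and leaving out the libraries that stood apart 5, at MII 0 to 2, and for the interaction 0 to 1, against 0 in each with all libraries.

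Several single-gene differences turned sign, none of which was called with all libraries, and the cause was not tested. For stage, Sdha was at 0.026 with library size only. Between genotypes at GV the differences without filter, with at least 10 counts and from 1 fit of 11 libraries were -0.17, -0.12 and -0.081 for Sdha, -0.15, -0.078 and -0.0078 for Atp5b, -0.35, -0.31 and -0.28 for Cox4i1, and -0.093, -0.090 and -0.11 for Cox6a1, which was at -0.059 with library size only. Without the libraries that stood apart Atp5e was at 0.47 and Atp5b at -0.55. With 1 library left out the differences ran from -0.016 to 0.43 for Sdha, -0.16 to 0.67 for Atp5b, -0.30 to 0.097 for Cox4i1 and -2.03 to 0.46 for Cox6a1. At MII the 3 settings gave 0.67, 0.55 and 0.77 for Sdha, and with 1 library left out the differences ran from -0.65 to 0.65 for Sdha, -0.092 to 9.36 for Atp5b and -1.27 to 6.19 for Cox6a1, the highest being in each case without WT MII replicate 1. The interaction was -0.39 (DESeq2) and -1.46 (library size only) for Sdha, -0.091 (library size only) for Atp5b, and, in 8 libraries, -0.69 for Ndufa4 and -0.26 for Cox4i1.

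The summed share of WT GV was 1.13% without the 2 genes with the most counts, Vsig8 and Mroh6, and that of Nat10-ZcKO MII 0.383%. As a share of TPM it was 2.62% in WT GV, 2.45% in Nat10-ZcKO GV, 0.476% in WT MII and 0.853% in Nat10-ZcKO MII. In acRIP-seq 15 of 81 members were above 2 with at least 10 fragments, and 2 had a lower bound above 2. With TMM factors the median ratio of the members was 0.524 and that of all genes 1.41. Depth limits the genotype comparisons, in which 37 members at GV and 11 at MII had enough counts to be tested.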

Other observations

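Genes that are not members, of the same pathway or set beside it for comparison, were also counted from lists. Of 46 genes for electron carriers and assembly factors, 10 were tested in the 8 libraries and 4 fell from GV to MII, with a median log2 change of -1.27. Of 14 citric acid cycle genes, 12 were tested, 5 fell and 1 rose (edgeR adjusted p under 0.05), with a median of -1.34. Of the 13 genes of the mitochondrial DNA, 5 were tested and 2 fell, with a median of -1.27. Of 13 genes for exchange across the mitochondrial membranes and for regulators, 2 were tested, of which 1 rose. Among cytosolic ribosomal protein genes 13 of 15 tested fell, with a median of -3.04, and among mitochondrial ribosomal protein genes 7 of 22, with a median of -1.20. In acRIP-seq the median anti-ac4C/IgG ratio was 0.554 over 47 cytosolic and 0.710 over 28 mitochondrial ribosomal protein genes with at least 50 fragments.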
